A study of Mus musculus with 6 samples.

Results

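The integrated stress response (ISR) genes described here are 3 of the kinases that phosphorylate the translation factor eIF2 alpha (*Eif2ak1*, *Eif2ak3* and *Eif2ak4*), the transcription factors *Atf4*, *Atf5* and *Ddit3*, and the stress-induced genes *Trib3*, *Asns*, *Sesn2* and *Ddit4*. They were chosen by name, with earlier results of these data known, and all 10 were found among the 16381 genes listed in the deposited table of normalized counts. Activated ILC2s (aILC2s), the group 2 innate lymphoid cells of the lung, were sorted from wild-type BALB/cJ mice, which the methods describe as females of 6 to 8 weeks, after intranasal rmIL-33 at 0.5 µg per day for 3 days. The sorted cells were live, CD45+, lineage-negative, ST2+ and CD127+. In culture they received either 250 µM melatonin or the vehicle, DMSO, for 24 h, and bulk RNA sequencing was done on 3 samples of each group. Both groups therefore share the IL-33 challenge, the sort and the culture, and no cells without IL-33 are part of this comparison. The labels do not say whether the 3 samples of a group came from separate mice or cultures. The Y-linked *Ddx3y* was at 1071 normalized counts in melatonin replicate 1 and at 0 in melatonin replicates 2 and 3. These 3 samples were therefore not all repeats of the same cells. The vehicle samples, at 746 to 907, did not hold the same cells as melatonin replicates 2 and 3 either. Whether the vehicle samples, or melatonin replicates 2 and 3, were repeats among themselves is not known. The p-values below thus measure the spread between these samples, which may be technical in part.

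The ISR is a shared brake on protein synthesis. Each eIF2 alpha kinase answers a different stress, and once eIF2 alpha is phosphorylated, general translation falls while the mRNAs of *Atf4* and some other factors are translated more efficiently. ATF4 protein then raises the transcription of genes for amino acid supply, redox defence and, if stress persists, cell death, so that transcript levels of its targets are often used as a readout of the pathway, while eIF2 alpha phosphorylation and ATF4 protein cannot be read from RNA.

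The libraries held from 17056127 to 20511526 estimated counts, and all 10 members passed the filter on low values, a normalized count of at least 10 in 1 sample. The library labels number the melatonin libraries apart from the vehicle libraries, so a library batch cannot be told apart from the treatment. Although the methods name female mice, the Y-linked *Ddx3y* had normalized counts of 746 to 907 in vehicle and 1071 in melatonin replicate 1, and was listed at 0 in melatonin replicates 2 and 3, in which *Xist*, the RNA of the inactive X chromosome, was at 579 and 1091. Melatonin replicate 1 was thus the only melatonin library that matched the vehicle libraries in these transcripts. All 10 members lie on autosomes. The defining markers of ILC2s were present in every sample, with *Gata3* at between 17890.4 and 24588 normalized counts over both groups. *Il1rl1*, which encodes ST2, was at 7698 to 8735 in vehicle and 10498 to 16787 in melatonin. *Il7r*, which encodes CD127, was at 1811 to 2102 in vehicle and at 1655, 743 and 699.7 in melatonin. Markers of natural killer (NK) cells or ILC1s moved with the treatment: their summed level over the 5 listed genes, most of it *Gzma*, was between 5879 and 7197 in vehicle and between 65.4 and 198 in melatonin, with *Ncr1* at between 101 and 114 in vehicle and at 1 or less in melatonin. Macrophage or monocyte markers, 5 of 6 listed, summed to between 1339 and 1520 in vehicle and to between 362 and 800.2 in melatonin, and the 3 of 6 T cell markers listed, the CD3 chains, to between 1203 and 1336 and to between 458 and 868. B cell markers, 2 of 4 listed, summed to 289 to 322 in vehicle and 131 to 162 in melatonin, and *Pecam1*, the 1 endothelial marker listed, to 1001 to 1066 and 310.0 to 416. Epithelial markers, 6 of 6 listed, summed to 925 to 2268 in vehicle and 1040.1 to 1260 in melatonin. Most of the melatonin sum was *Epcam*, which was higher in melatonin (1016 to 1230) than in vehicle (623 to 745). The airway and alveolar markers went the other way. *Scgb1a1* (21.5 to 1045 in vehicle, highest in vehicle replicate 3) and *Sftpc* (122 to 389) were at 1 or less and at 6.54 or less in melatonin. Eosinophil or neutrophil markers, 3 of 6 listed, summed to 15.9 to 70.9 in vehicle and 0 to 4.37 in melatonin. The 14 ILC2 markers summed to 226158 to 241140 in vehicle and 153134 to 172067 in melatonin, but they went both ways. *Il5* and *Il2ra*, the highest of them in vehicle, were lower in melatonin. *Il5* was at 78846 to 85795 in vehicle and 40304 to 57764 in melatonin, and *Il2ra* at 50819 to 52389 and 21436 to 36551. *Rora*, like *Il1rl1*, was higher, at 4000 to 4546 in vehicle and 5760 to 7796 in melatonin. The part of other cells in the results below was not tested. In bulk samples, fewer cells of a type and less RNA per cell cannot be told apart.

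Promoter sequence was examined first, because ATF4 and its partners are known to bind a C/EBP-ATF response element (CARE) and the study also addressed NRF2, which is known to bind antioxidant response elements. Windows of 300 bases, from 250 bases before the transcript start to 50 bases from it, were taken from RefSeq, which gave 12 windows for the 10 members, and from canonical transcripts of the Gencode M39 annotation. The 12 RefSeq windows were each found in GRCm39, which gave the positions below. The CARE core TGATGNAA, read on both strands, stood in the RefSeq windows of *Asns* and *Trib3* and in the Gencode window of *Ddit3*, against 3.97% of all 32851 RefSeq and 2.38% of all 12952 Gencode windows. These 3 stretches are shown because these genes are members that ATF4 is known to regulate, and their values differ below. The capitals mark the match, and *Ddit3* and *Trib3* hold it on the strand opposite to the gene.

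Asns, GRCm39 chr6:7693210-7693269, minus strand, bases −60 to −1 from the start: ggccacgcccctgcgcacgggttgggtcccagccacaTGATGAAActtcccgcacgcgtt
Trib3, GRCm39 chr2:152185948-152185977, minus strand, bases 4 to 33: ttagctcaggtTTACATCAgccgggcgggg
Ddit3, GRCm39 chr10:127126335-127126394, plus strand, bases −225 to −166: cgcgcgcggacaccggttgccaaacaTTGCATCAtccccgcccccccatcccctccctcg

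The antioxidant response element core TGACNNNGC, on both strands, was found in 12.4% of all RefSeq windows, and among the members in those of *Asns* and *Sesn2*. Capitals mark the *Sesn2* match, which is given since sestrin 2 is also known as a gene that NRF2 regulates. It stands from base −36 of the RefSeq start and from base 13 of the Gencode start, so it lies before one annotated start and after the other. The E-box CACGTG was found in 7.15% of RefSeq windows and the ER stress element in 0.119%, and 0 members held either. These matches are descriptions of sequence, not sites of binding measured here.

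Sesn2, GRCm39 chr4:132237784-132237813, minus strand, bases 3 to 32 of the Gencode start: cgcagcgggcTGACAGAGCcgggcgagcgc

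Across all members, 3 rose with melatonin (*Eif2ak1*, *Eif2ak3* and *Ddit3*), 2 fell (*Atf4* and *Atf5*) and 5 did not pass the test. With limma, 24.5% of the 14419 genes tested were higher in melatonin and 24.7% lower at an adjusted p under 0.05, so 3 and 2 of 10 are close to the background share and are no result about the list. The median log2 fold change of the members was 0.08, and from 0.03 (without vehicle replicate 3) to 0.22 (without melatonin replicate 1) when single samples were left out, against −0.0046 for all genes tested. In 2 members all melatonin samples were above all vehicle samples, as in 30.0% of genes tested, and in 2 they were all below, as in 30.3%. With 3 samples in each group, the smallest two-sided p of an exact permutation test is 0.1, so the tests given are those of the fit across all genes. The size of a change is given as a log2 fold change with its standard error (SE), on the scale of log2(normalized count + 1), which understates changes of low genes.

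**Figure D1:**
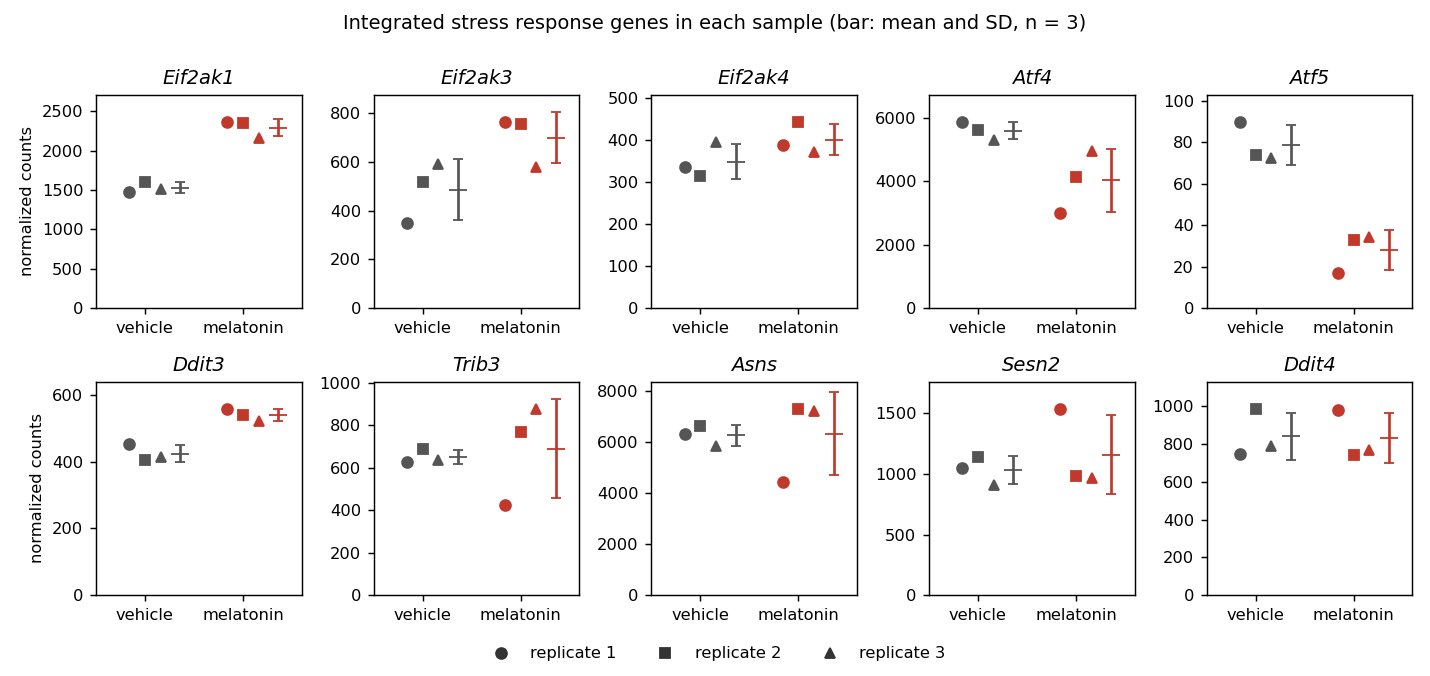
Normalized counts (vertical axes, each from 0) of the 10 members in each sample, with vehicle in grey and melatonin in red, the symbol giving the replicate and the bar at the right of each group the mean and SD of 3 samples. The groups are apart for *Eif2ak1*, *Atf4*, *Atf5* and *Ddit3*, and melatonin replicate 1 lies away from melatonin replicates 2 and 3 for *Trib3*, *Asns* and *Sesn2*.

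Of the kinases, *Eif2ak1* changed most clearly. It encodes HRI, the heme-regulated inhibitor, which is active when heme is scarce and also relays mitochondrial stress through DELE1, and it lies on chromosome 5 (GRCm39 chr5:143803530-143843661, plus strand). Its normalized counts were 1471, 1603 and 1514 in vehicle replicates 1, 2 and 3 and 2359, 2351 and 2164 in melatonin replicates 1, 2 and 3. Every melatonin sample was above every vehicle sample, with means of 1529 ± 67.3 and 2291 ± 109.9 (SD, n = 3). It rose by 0.58 ± 0.08 on the log2 scale (SE; limma, adjusted p = 0.000526), and the call held in each of the 19 alternative fits. Exons of *Aimp2*, on the opposite strand, cover 2578 of the 10052 bases of annotated *Eif2ak1* exons. Reads there cannot be told apart without strand, and *Aimp2* went from a mean of 2400.1 in vehicle to 1661 in melatonin, the opposite direction to *Eif2ak1*.

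*Eif2ak3* encodes PERK, the kinase of the endoplasmic reticulum that senses unfolded proteins (GRCm39 chr6:70821461-70882235, plus strand). Its counts were 351, 517 and 592 in vehicle and 762, 756 and 580.0 in melatonin. Melatonin replicate 3 lay below vehicle replicate 3, so the groups overlapped. It was higher by a log2 fold change of 0.54 ± 0.19 (SE; limma, adjusted p = 0.0438). The call was lost in limma fits without melatonin replicate 1 (0.48, adjusted p = 0.0972), melatonin replicate 2 (0.48, adjusted p = 0.127), vehicle replicate 1 (0.33, adjusted p = 0.126) or vehicle replicate 2 (0.61, adjusted p = 0.0738), and the value without vehicle replicate 1, the lowest sample, was the smallest of these.

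*Eif2ak4* encodes GCN2, which is activated by uncharged tRNA when amino acids run short (GRCm39 chr2:118218950-118305868, plus strand). Its counts were 335, 315 and 395 in vehicle and 388, 441 and 371 in melatonin, and the groups overlapped. The log2 fold change of 0.20 ± 0.13 did not pass the test (SE; limma, adjusted p = 0.216), with a 95% interval from −0.09 to 0.49. Exons of *Srp14*, on the opposite strand, cover 504 of the 14921 bases of annotated *Eif2ak4* exons. *Srp14* went from a mean of 3161 in vehicle to 3473 in melatonin, the same direction as *Eif2ak4*. The fourth kinase of the family, *Eif2ak2*, which encodes the double-stranded RNA sensor PKR, was at 309, 289.5 and 246 in vehicle and 372, 259 and 248 in melatonin. Its log2 fold change was 0.04 ± 0.18 (limma, adjusted p = 0.865). Thus the change was clear for HRI, sensitive to single samples for PERK and not detected for GCN2 and PKR, while the differences between the kinases were not tested.

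*Atf4* encodes the central transcription factor of the response, whose translation is controlled by short upstream reading frames (GRCm39 chr15:80139372-80141745, plus strand). Its counts were 5857, 5608 and 5315 in vehicle and 2983, 4128 and 4970 in melatonin. All melatonin samples were below all vehicle samples, but melatonin replicate 3 was nearer to the lowest vehicle sample than to melatonin replicate 2. The means were 5593 ± 271 in vehicle and 4027 ± 997 in melatonin (SD, n = 3). It fell by a log2 fold change of −0.50 ± 0.16 (SE; limma, adjusted p = 0.0285). The call was lost in limma fits without melatonin replicate 2 (−0.54, adjusted p = 0.0571), vehicle replicate 1 (−0.47, adjusted p = 0.0793), vehicle replicate 2 (−0.50, adjusted p = 0.0786) or vehicle replicate 3 (−0.54, adjusted p = 0.0576), although in each of these fits the value remained negative. Without melatonin replicate 1 it was −0.30 and still called.

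The genes whose pattern over the 6 samples was most like that of *Atf4*, out of the 9990 genes whose mean was 100 normalized counts or more, were *Cox7c*, a subunit of cytochrome c oxidase (Pearson's r = 0.9974), *Rps6*, a protein of the small ribosomal subunit (r = 0.9971), and *Eif2s3x*, the X-linked gene of the gamma subunit of eIF2 (r = 0.9966). All of them were lowest in melatonin replicate 1 and highest of the melatonin samples in replicate 3, as *Atf4* was. *Rps6*, for example, was at 2198, 2069 and 1927 in vehicle and 881, 1407 and 1669 in melatonin. These correlations are descriptions over samples that share libraries and treatment and that differ in sex-linked transcripts.

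*Atf5*, which encodes a relative of ATF4 linked to mitochondrial stress (GRCm39 chr7:44461680-44466082, minus strand), had the largest fold change of the members. Its counts were 89.6, 74.0 and 72.4 in vehicle and 16.8, 32.8 and 34.2 in melatonin. All melatonin samples were below all vehicle samples, at means of 27.9 ± 9.65 and 78.7 ± 9.50 (SD, n = 3). Its log2 fold change was −1.52 ± 0.31 (SE; limma, adjusted p = 0.00377), and the call held in each of the 18 alternative fits that tested it, with values from −1.69 to −1.20 when single samples were left out. It was also the member with the lowest level, at 18 estimated counts in its lowest sample. A stretch of 180 of its 2152 exon bases overlaps *Nup62* on the opposite strand, which was at a mean of 5498 in vehicle and 4876 in melatonin.

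*Ddit3* encodes CHOP, a partner of ATF4 known for promoting cell death under lasting stress (GRCm39 chr10:127124268-127132163, plus strand). Its counts were 452, 405 and 414 in vehicle and 557, 539 and 521 in melatonin. Every melatonin sample was above every vehicle sample, and the spread within each group was small. The log2 fold change was 0.35 ± 0.10 (SE; limma, adjusted p = 0.0182), opposite in direction to those of *Atf4* and *Atf5*. The call was lost in limma fits without vehicle replicate 2 (0.31, adjusted p = 0.0749) or vehicle replicate 3 (0.33, adjusted p = 0.0603). Annotated isoforms of *Mars1*, the methionyl-tRNA synthetase gene on the opposite strand, cover 3576 of the 5579 exon bases of *Ddit3*. The mean of *Mars1* was 5297 in vehicle and 3947 in melatonin, the opposite direction to *Ddit3*.

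The 4 stress-induced genes did not pass the test, and in each of them melatonin replicate 1 lay apart from melatonin replicates 2 and 3. *Trib3* encodes a pseudokinase that binds ATF4 and AKT (GRCm39 chr2:152179337-152191958, minus strand). Its counts were 628, 688 and 638 in vehicle and 427, 771 and 876 in melatonin. Melatonin replicate 1 was below all vehicle samples and melatonin replicates 2 and 3 were above all of them. With all samples the log2 fold change was 0.02 ± 0.23 (SE; limma, adjusted p = 0.945), with a 95% interval from −0.50 to 0.55.

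*Asns* encodes asparagine synthetase, a classical ATF4 target of the response to amino acid shortage (GRCm39 chr6:7671667-7728461, minus strand). Its counts were 6307, 6628 and 5824 in vehicle and 4427, 7262 and 7220 in melatonin. As for *Trib3*, melatonin replicate 1 was below and melatonin replicates 2 and 3 were above all vehicle samples. The log2 fold change was −0.02 ± 0.18 (SE; limma, adjusted p = 0.923), with a 95% interval from −0.42 to 0.37. Both genes hold a CARE core in the sequences printed above, as does *Ddit3*, whose melatonin samples lay close together.

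*Sesn2* encodes sestrin 2, a leucine sensor that restrains mTORC1 (GRCm39 chr4:132219335-132237815, minus strand). Its counts were 1050.1, 1138 and 913 in vehicle and 1533, 981 and 967 in melatonin. Here melatonin replicate 1 was above all vehicle samples and melatonin replicates 2 and 3 were within their range. The log2 fold change was 0.14 ± 0.18 (SE; limma, adjusted p = 0.539), with a 95% interval from −0.26 to 0.54.

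*Ddit4* encodes REDD1, another inhibitor of mTORC1 that is induced by stress, hypoxia and glucocorticoids (GRCm39 chr10:59785491-59788492, minus strand). Its counts were 748, 983 and 789 in vehicle and 982, 742 and 769 in melatonin. One sample of each group, vehicle replicate 2 and melatonin replicate 1, was high, and the others lay between 742 and 789. The log2 fold change was −0.02 ± 0.14 (SE; limma, adjusted p = 0.933), with a 95% interval from −0.34 to 0.31.

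Because melatonin replicate 1 differed from melatonin replicates 2 and 3 in its sex-linked transcripts, the members were also compared with melatonin replicate 1 left out. That fit keeps only the melatonin libraries that differ from vehicle in these transcripts. As a value added after the data had been seen, the log2 difference of melatonin replicate 1 from the vehicle mean is set beside it, in which only libraries with Y-linked transcripts enter. This second value rests on a single melatonin sample, so it is a description with no test. *Trib3* was at −0.61 in melatonin replicate 1 and at 0.34 ± 0.09 (SE) in melatonin replicates 2 and 3, where it was called higher (limma, adjusted p = 0.0189). *Asns* was at −0.50 in melatonin replicate 1 and at 0.21 ± 0.07 in replicates 2 and 3, where it was also called higher (limma, adjusted p = 0.0319). *Sesn2* was at 0.57 in melatonin replicate 1 and at −0.08 ± 0.10 in replicates 2 and 3 (limma, adjusted p = 0.542). For *Trib3* and *Asns*, the values near 0 with all samples are therefore averages over melatonin samples that lay on either side of the vehicle samples. The shares of all genes called without melatonin replicate 1 were 24.2% higher and 25.3% lower.

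In the same order, *Eif2ak1* was at 0.63 in melatonin replicate 1 and at 0.56 ± 0.07 in replicates 2 and 3, and *Ddit3* at 0.39 and 0.32 ± 0.10, and both were called higher without melatonin replicate 1. *Atf4* was at −0.91 and −0.30 ± 0.09 and *Atf5* at −2.15 and −1.20 ± 0.22, and both were called lower without melatonin replicate 1. *Eif2ak3* was at 0.68 and 0.48 ± 0.21, *Eif2ak4* at 0.16 and 0.22 ± 0.14 and *Ddit4* at 0.24 and −0.14 ± 0.12, and none of these 3 was called without melatonin replicate 1. The sign of the kinases and of the transcription factors was the same in both values, while that of *Trib3*, *Asns*, *Sesn2* and *Ddit4* was not. In melatonin replicates 2 and 3 against vehicle, the difference in sex-linked transcripts and the treatment cannot be told apart. The fits with all samples also include these melatonin libraries, so they hold this difference in part.

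Melatonin replicate 1 was the lowest melatonin sample for 4 members (*Atf4*, *Atf5*, *Trib3* and *Asns*) and the highest for 5 (*Eif2ak1*, *Eif2ak3*, *Ddit3*, *Sesn2* and *Ddit4*). Among the 9990 genes with a mean of at least 100 it was the lowest in 37.5% and the highest in 39.3%. Its distance from the mean of melatonin replicates 2 and 3, on the log2 scale, was −0.94 for *Trib3*, −0.95 for *Atf5*, −0.71 for *Asns*, 0.65 for *Sesn2* and −0.60 for *Atf4*, where the median size of this distance was 0.19 over those genes, of which *Atf5*, with a mean under 100, is not one, and 0.24 over all genes tested. The spread was wider in melatonin than in vehicle for 7 of the 10 members, as it was for 69.1% of all genes tested, so the count is no result about the members. For *Trib3* the SD of log2 values was 0.55 in melatonin and 0.07 in vehicle, and for *Asns* 0.41 and 0.09, beside medians of 0.15 and 0.09 over the genes with a mean of at least 100.

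Per kilobase of the canonical transcript, *Atf4* was the member with the highest level in vehicle, at 3213 normalized counts per kilobase (range 3053 to 3364), followed by *Asns* at 1276, *Ddit4* at 477, *Ddit3* at 433, *Eif2ak1* at 352, *Trib3* at 311, *Sesn2* at 297, *Eif2ak3* at 107, *Eif2ak4* at 65.3 and *Atf5* at 43.3. Of neighbours in this order, the ranges of *Ddit4* and *Ddit3* and those of *Trib3* and *Sesn2* overlapped, and the others did not. The order rests on 1 transcript length per gene, for example 4901 bases for *Asns* and 979 for *Ddit3*. Their annotated exons cover 11709 and 5579 bases, so another choice of transcript could change it. In melatonin, *Atf4* was at 2313 per kilobase (range 1714 to 2855) and *Asns* at 1286 (range 903 to 1482), so both remained the most abundant. There *Ddit3* at 550.2 and *Eif2ak1* at 528 had higher means than *Ddit4* at 472, with overlapping ranges, and *Atf5* at 15.4 was still the lowest.

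Genes around the members were taken from lists of the pathway, which share some genes with each other. The counts of called genes in these lists stand beside the 24.5% higher and 24.7% lower of all genes tested, and with no test of a list they are descriptions. Of 18 eIF2 pathway partners, which encode eIF2, its exchange factor eIF2B and regulators of the kinases and phosphatases, 5 rose and 9 fell, with a median log2 fold change of −0.25. *Eif2s3x* fell by 0.67 ± 0.22 (SE; limma, adjusted p = 0.0312), and *Eif2b2*, the beta subunit of eIF2B, fell by 0.59 ± 0.07 (adjusted p = 0.000387). *Eif2s3x* was at 956, 1459.8 and 1987 in melatonin replicates 1, 2 and 3 and at 2119 to 2296 in vehicle, and its call was lost without melatonin replicate 2 (−0.70) or any vehicle replicate (−0.71 to −0.65), while without melatonin replicate 1 it was called at −0.39. *Eif2s3x* lies on chromosome X, and its lowest sample was melatonin replicate 1, the melatonin library without *Xist*. Whether the difference in sex-linked transcripts has a part in its values was not tested. Without vehicle replicate 1, 2 or 3, the number of partners that fell was 4, 4 and 5, and without the variance trend it was 4.

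*Oma1* and *Nck1* had the largest rises of the called partners. *Oma1*, the mitochondrial protease that cleaves DELE1 on the path to HRI, was at 506, 576 and 494 in vehicle and 838, 869 and 965 in melatonin. Its log2 fold change was 0.76 ± 0.10 (SE; limma, adjusted p = 0.000558), with no overlap between the groups. *Nck1*, an adaptor known to modulate PERK and eIF2 alpha dephosphorylation, was at 778, 809.5 and 654 in vehicle and 1265, 1191 and 1026 in melatonin, a log2 fold change of 0.64 ± 0.12 (limma, adjusted p = 0.00240). *Gcn1*, a co-activator of GCN2, fell by 0.35 (limma, adjusted p = 0.00560), and *Dele1* was at −0.27 (adjusted p = 0.0997), and these were named after their values were seen.

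Of the 20 ATF4 amino acid genes, 19 were tested, and 5 rose and 8 fell, with a median log2 fold change of −0.25. The largest falls were those of *Cth*, cystathionine gamma-lyase of cysteine synthesis, and *Slc7a3*, a transporter of cationic amino acids. *Cth* was at 178, 163 and 179 in vehicle and at 9.34, 77.6 and 50.3 in melatonin (−2.33 ± 0.62, limma, adjusted p = 0.0136), and *Slc7a3* fell by 1.35 ± 0.42 (adjusted p = 0.0270). The rises were led by the neutral amino acid transporter *Slc1a4* (0.87 ± 0.16, limma, adjusted p = 0.00205) and the glycine transporter *Slc6a9* (0.85 ± 0.23, adjusted p = 0.0147). *Slc7a3* lies on chromosome X, like *Eif2s3x*, and was at 131, 457 and 488 in melatonin replicates 1, 2 and 3. Whether the difference in sex-linked transcripts has a part in this was not tested. The call of *Slc7a3* was lost without any 1 of the vehicle replicates (−1.37 to −1.30), and that of *Slc6a9* without vehicle replicate 2 (0.76). Without melatonin replicate 1 the values were −1.46 for *Cth*, −0.73 for *Slc7a3* and 0.56 for *Slc6a9*, and each was still called. Melatonin replicate 1 was the lowest melatonin sample in 16 of the 19 genes. The list median, relative to vehicle on the log2 scale, was −0.54 in melatonin replicate 1, −0.08 in replicate 2 and −0.11 in replicate 3. The list median of the fold change was −0.10 without melatonin replicate 1.

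The tRNA synthetase list, 12 cytosolic synthetases and the tRNA exporter *Xpot*, had 13 genes tested, of which 0 rose and 4 fell, with a median log2 fold change of −0.23 (limma; 1 was higher and 4 were lower at an unadjusted p under 0.05). With voom, with sample weights, and without melatonin replicate 1, 1 gene was called higher. *Gars1*, glycyl-tRNA synthetase, fell by 0.54 ± 0.12 (SE; limma, adjusted p = 0.00599) and *Yars1*, tyrosyl-tRNA synthetase, fell by 0.47 ± 0.12 (adjusted p = 0.0101). Melatonin replicate 1 was the lowest melatonin sample in all 13, and the list median was −0.51 in that sample against −0.03 and −0.18 in replicates 2 and 3. Without melatonin replicate 1, the median of the fold change was −0.09.

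Of 20 ATF4 stress genes 17 were tested, and 8 rose and 4 fell, with a median of 0.31, and 5 rose without melatonin replicate 2, without vehicle replicate 2 or without the variance trend. *Nupr1*, a stress-induced chromatin protein, was at 1407, 1510 and 1353 in vehicle and 281, 461 and 466 in melatonin, a log2 fold change of −1.85 ± 0.18 (SE; limma, adjusted p = 0.000135). *Stc2*, a secreted glycoprotein, fell by 1.38 ± 0.23 (adjusted p = 0.00145). *Jdp2*, a repressor of the AP-1 family, rose by 0.95 ± 0.23 (limma, adjusted p = 0.00875). *Cebpb*, a C/EBP factor that can pair with ATF4, was at 12.1, 59.6 and 189 in vehicle and 385, 606 and 247 in melatonin, so its log2 fold change of 2.86 ± 0.80 (adjusted p = 0.0167) came with a wide spread in vehicle, and without vehicle replicate 1, the lowest sample, it was 1.85. The call was lost in the limma fit without melatonin replicate 2 (2.54, adjusted p = 0.0641). The falls and rises within the list of ATF4 stress genes thus ran in both directions, as they did among the members.

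**Figure D2:**
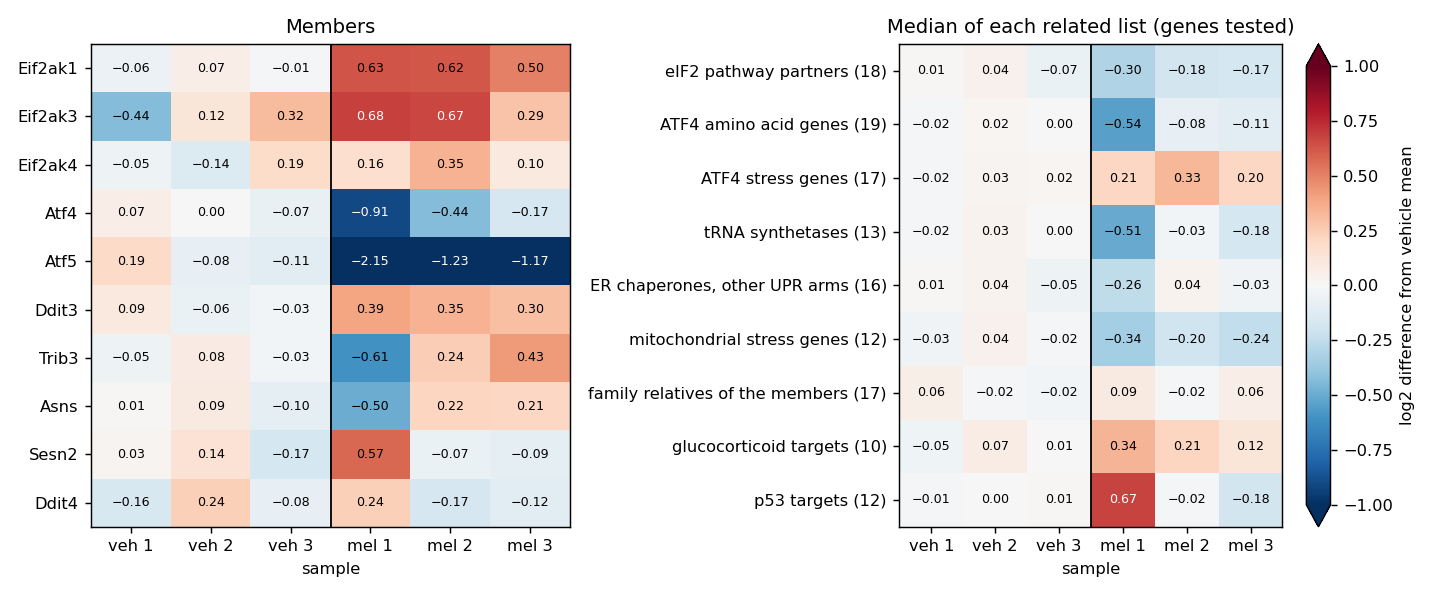
Difference from the vehicle mean on the log2 scale (colour, cut at −1 and 1, with the value printed in each cell) in each of the 6 samples, for the members (left) and as the median over each related list (right, number of genes tested in brackets). In melatonin replicate 1, the amino acid list is at −0.54, the tRNA synthetases at −0.51 and the p53 targets at 0.67, each farther from 0 than in melatonin replicates 2 and 3.

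For the other arms of the unfolded protein response and the ER chaperones, 4 of 16 genes rose and 5 fell, with a median of −0.12, which was −0.03 without melatonin replicate 1, and 3 fell with the GC correction. *Hspa5*, which encodes the chaperone BiP that holds PERK inactive, was at 25603, 28003 and 26146 in vehicle and 43473, 53343 and 42384 in melatonin, a log2 fold change of 0.80 ± 0.11 (SE; limma, adjusted p = 0.000490). *Dnajb9*, a co-chaperone of BiP, rose by 0.61 ± 0.13 (adjusted p = 0.00559). *Sec61b*, a subunit of the translocation channel, fell by 0.70 ± 0.13 (limma, adjusted p = 0.00226), and the chaperone *Hyou1* fell by 0.57 ± 0.09 (adjusted p = 0.00111).

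Of 12 mitochondrial stress genes, chaperones, proteases and import subunits of mitochondria, 2 rose and 7 fell, with a median of −0.26. The count of rises was 1 without vehicle replicate 1 or with the length correction, and that of falls was 4 without vehicle replicate 2. *Hspe1*, the co-chaperonin HSP10, was at 1283, 1222 and 1141 in vehicle and 321, 598 and 613 in melatonin, a log2 fold change of −1.31 ± 0.22 (SE; limma, adjusted p = 0.00161). *Clpp*, the peptidase of the matrix, fell by 0.73 ± 0.09 (adjusted p = 0.000332), whereas *Clpx*, the unfoldase that works with it, rose by 0.35 ± 0.09 (limma, adjusted p = 0.0131, lost without vehicle replicate 1 at 0.33) and the membrane protease *Spg7* rose by 0.47 ± 0.09 (adjusted p = 0.00284).

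Of 17 relatives of the members tested, genes of the same families, 4 rose and 3 fell, with a median of −0.04, which was 0.03 without melatonin replicate 1 and without melatonin replicate 2 alike, −0.09 without melatonin replicate 3, −0.0080 without vehicle replicate 1, −0.016 without vehicle replicate 2 and −0.08 without vehicle replicate 3. *Sesn1*, the paralogue of *Sesn2*, was at 765, 740.2 and 788 in vehicle and 2308, 2191 and 1928 in melatonin, with no overlap, and its log2 fold change was 1.48 ± 0.09 (SE; limma, adjusted p = 2.1e-05), beside 0.14 for *Sesn2*. *Atf3*, a stress-induced factor of the ATF family, was at 169.9, 160.2 and 153 in vehicle and 49.5, 83.0 and 69.4 in melatonin, a fall of −1.28 ± 0.21 (limma, adjusted p = 0.00151). *Atf1* fell by 0.60 ± 0.08 (adjusted p = 0.000615).

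Because *Sesn2* and *Ddit4* also answer to p53, and *Ddit4* to glucocorticoids, targets of p53 and of glucocorticoids were described too. Of 12 p53 targets, 3 rose and 3 fell, with a median of 0.12 (0.21 without melatonin replicate 2 and 0.28 without melatonin replicate 3), and melatonin replicate 1 was the highest melatonin sample in all 12. The list median was 0.67 in that sample and −0.02 and −0.18 in replicates 2 and 3. Without melatonin replicate 1, 3 targets were called higher and 5 lower, and the median was −0.19. The number called lower was 1 without melatonin replicate 2 or 3, without vehicle replicate 2 or 3, without the variance trend and with the length correction. The count of falls was 1 without melatonin replicate 2, melatonin replicate 3, vehicle replicate 2 or vehicle replicate 3. *Btg2*, an antiproliferative factor, was at 2650.1, 1478 and 1477 in melatonin and at 615 to 693 in vehicle (1.46 ± 0.21, limma, adjusted p = 0.000646). *Zmat3* fell by 1.16 ± 0.18 (adjusted p = 0.000916), and *Aen* fell by 0.36 ± 0.11 (adjusted p = 0.0217), a call that was lost in each of the last 4 fits named (−0.36 to −0.26). Of 10 glucocorticoid targets, 1 rose and 2 fell, with a median of 0.21, which was 0.09 without melatonin replicate 1 and 0.14 without vehicle replicate 1, and 2 rose without melatonin replicate 3, without vehicle replicate 3, with quantile normalization or with the GC correction. The kinase gene *Sgk1* rose by 1.80 ± 0.12 (limma, adjusted p = 2.9e-05), and the metallothionein gene *Mt1* fell by 2.04 ± 0.23 (adjusted p = 0.000267).

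**Figure D3:**
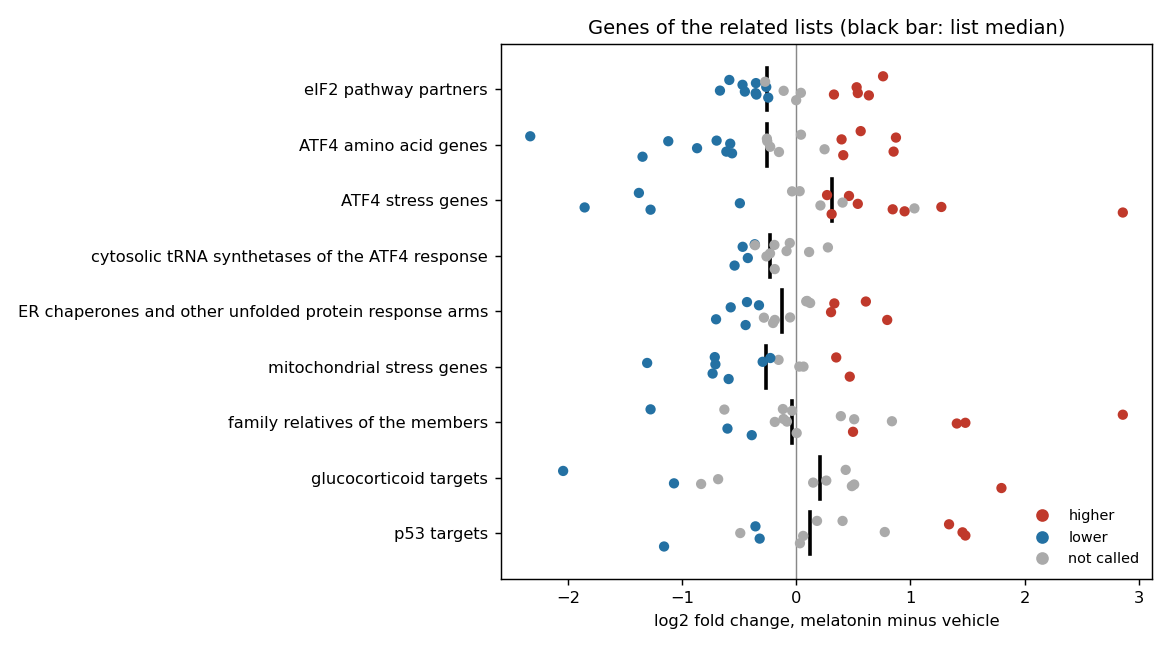
Log2 fold change of melatonin against vehicle (horizontal axis) of each tested gene in the related lists, with genes called higher in red, called lower in blue and not called in grey, and the list median as a black bar. Each list but the tRNA synthetases, with 0 higher and 4 lower, holds genes called in both directions.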

How the data were processed

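The authors sequenced cDNA made with a low-input kit that does not mark strand, trimmed the reads and aligned them with STAR 2.7.8a to mm39 in Partek Flow 12.9.0. The authors assigned reads to genes of Gencode M33 by an expectation-maximization algorithm of Partek, which can split a read between genes, dropped genes with few counts (each listed gene has at least 10 estimated counts summed over the 6 samples) and scaled the rest by the median ratio method of DESeq2. The methods and the labels give different amounts of input RNA.

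The deposited values are thus a signal in which each sample's estimated counts have been divided by its size factor; they are called normalized counts here. The value of 1 read was estimated from the spacing of low values. Between 72.0% and 73.6% of values under 60 were whole multiples of it (tolerance 0.01), so whole reads were not recovered, and the estimated counts serve as depth only. Names, positions, transcript lengths and GC content came from Gencode M39, in which 16334 of 16381 genes had a name.

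Differences were tested with limma 3.58.1 (R 4.3.3), with moderated variances that follow a trend in mean level, on log2(normalized count + 1) and treatment as the only term. A gene was tested if 1 or more samples reached 10. Benjamini-Hochberg adjustment covered all 14419 genes tested, at a threshold of 0.05. Intervals of 95% use the SE and degrees of freedom of that fit. The script was tested on simulated data. The same-numbered samples of the 2 groups did not deviate together, so the numbers were not taken as pairs. Tables and figures were made with pandas 2.3.3, numpy 2.4.6, scipy 1.17.1 and matplotlib 3.10.9.

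All members were named. Of each list, only its 2 largest rises and 2 largest falls among the called genes (mean 100 or more), *Eif2ak2*, the 3 genes most like *Atf4* and 3 ILC2 markers were named by rule. *Mars1*, *Aimp2*, *Nup62*, *Srp14*, *Xist*, *Ddx3y*, *Gzma*, *Ncr1*, *Pecam1*, *Epcam*, *Scgb1a1*, *Sftpc*, *Il5*, *Il2ra*, *Rora*, *Gcn1* and *Dele1* were added after their values were seen. The members and lists were chosen with earlier results of these data known. The alternatives were pseudocounts, filters, scalings, limma settings, voom, stricter thresholds, length and GC corrections, a replicate block, each sample left out, and, added after the data were seen, only libraries with Y-linked transcripts, a value with no test.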

Additional observations from a re-analysis of the deposited data

How the results depend on the processing

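*Eif2ak1* and *Atf5* kept their direction and their call in every fit that tested them, and *Atf4*, *Eif2ak3* and *Ddit3* kept their direction but not always their call. The count of members higher, 3 with all samples, was 1 with quantile normalization, 1 at an adjusted p under 0.01 and 0 at a log2 fold change of at least 1, and from 1 to 4 when single samples were left out. The count lower, 2, was 1 with quantile normalization, without the trend, with the length correction, with the GC correction, at an adjusted p under 0.01, at a log2 fold change of at least 1 and with a mean of at least 100, where *Atf5* is not tested. It was from 1 to 2 when single samples were left out. With the replicate block, 2 members were higher and 2 lower, and over all genes 3160 were higher and 3278 lower. *Eif2ak3* lost its call there (adjusted p = 0.0755). Correlations of same-numbered samples were −0.11, 0.14 and −0.19.

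*Atf4* missed the threshold with quantile normalization (−0.41), the length correction (−0.43), the GC correction (−0.39) and without the trend, with adjusted p from 0.0517 to 0.0875. *Eif2ak3* missed it with upper quartile scaling (0.50), quantile normalization (0.48), the length correction (0.41) and without the trend, and *Ddit3* with quantile normalization (0.27), while *Ddit3* was at 0.60 with the length correction and 0.47 with the GC correction, both called. *Eif2ak4*, not called, was at 0.07 with the length correction. The causes were not tested. Over all genes, 2188 were higher and 2267 lower at an adjusted p under 0.01, and 866 and 1392 at a log2 fold change of at least 1.

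Signs changed only for members whose fold change was near 0. *Trib3* was −0.028 with upper quartile scaling, −0.049 with quantile normalization, −0.61 in the libraries with Y-linked transcripts, and from −0.18 to 0.34 when single samples were left out. *Asns* was 0.015 at the same total, 0.12 with quantile normalization, 0.11 with sample weights, 0.014 with voom, and from −0.14 to 0.21 with samples left out. *Sesn2* was −0.024 with sample weights and from −0.080 to 0.25 with samples left out. *Ddit4* was 0.022 at the same total, 0.026 with voom, 0.24 in the libraries with Y-linked transcripts, 0.055 with the length correction, 0.067 with the GC correction, and from −0.14 to 0.10 with samples left out.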
